A study of Mus musculus with 12 samples.

Results

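The transcripts of 7 genes that serve antigen presentation by major histocompatibility complex (MHC) class II molecules were followed in cultured mouse hematopoietic stem cells. The 7 are Cd74, H2-Aa, H2-Ab1, H2-Eb1, H2-DMa, H2-DMb1 and Ciita, chosen by gene name, with 1 Ensembl identifier each, and they were 7 of the 40481 genes in the deposited table. Hematopoietic stem cells (HSCs) had been sorted from the liver of embryos at E14.5 (embryonic day) or from the bone marrow of mice at 8 weeks of age. The animals were wild type (WT) or carried ETV6-RUNX1, a fusion of the genes of a pair of blood transcription factors that is found in childhood B-cell leukemia, in the inducible form that the labels call iE/R. All cells, those of WT mice included, were grown ex vivo for 3 days under conditions that expand HSCs, in the presence of doxycycline (1 µg/mL), the drug that switches the fusion on, so culture and drug are shared by all 4 groups and no freshly isolated cells enter any comparison. Each group (WT fetal liver, ETV6-RUNX1 fetal liver, WT bone marrow and ETV6-RUNX1 bone marrow) was read by RNA sequencing of 3 libraries. The labels do not say whether the 3 came from separate animals or how many animals went into one, so the p-values below measure the spread between libraries, which may be technical.

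MHC class II molecules are heterodimers of an alpha and a beta chain that display peptides from endosomes to CD4+ T cells. H2-Aa and H2-Ab1 encode the alpha and beta chains of the mouse H2-A molecule, and H2-Eb1 encodes the beta chain of H2-E. Cd74 encodes the invariant chain, which occupies the groove of new class II dimers and guides them to endosomes, and which at the cell surface also takes part in a receptor for the cytokine MIF. H2-DMa and H2-DMb1 encode H2-DM, the molecule that removes the last fragment of the invariant chain and lets peptides bind. Ciita encodes the class II transactivator, a coactivator that does not bind DNA itself but is held at class II promoters by the proteins on their X and Y boxes (RFX, CREB and NF-Y). It is switched on by interferon gamma through factors that include IRF1 in many cell types and is active without such a signal in dendritic cells and B cells, the cells in which class II genes are best known.

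The promoter sequences of 4 members were present in the RefSeq table used here (H2-Aa, H2-Eb1, H2-DMb1 and H2-DMa), and those of H2-Aa, H2-Eb1 and H2-DMb1 are shown because each holds letters of an X box followed by letters of a Y box, the elements through which Ciita acts. They are the 250 bases before the RefSeq start site, 5′ to 3′ on the strand of the gene, on GRCm38.p6: chr17:34287824-34288073 for H2-Aa (minus strand), chr17:34305617-34305866 for H2-Eb1 (plus strand) and chr17:34152941-34153190 for H2-DMb1 (plus strand). Capitals mark GNAAC, part of the X box, and ATTGG, the core of the Y box.
H2-Aa: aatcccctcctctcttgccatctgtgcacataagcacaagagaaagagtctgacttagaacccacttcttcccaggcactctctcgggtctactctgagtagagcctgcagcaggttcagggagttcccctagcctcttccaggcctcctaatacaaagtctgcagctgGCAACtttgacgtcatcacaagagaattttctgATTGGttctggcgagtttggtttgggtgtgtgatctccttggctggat
H2-Eb1: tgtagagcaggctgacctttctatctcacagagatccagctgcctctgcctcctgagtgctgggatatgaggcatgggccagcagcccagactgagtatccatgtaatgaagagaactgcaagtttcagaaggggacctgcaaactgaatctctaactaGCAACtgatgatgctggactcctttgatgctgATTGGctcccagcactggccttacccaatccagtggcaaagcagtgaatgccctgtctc
H2-DMb1: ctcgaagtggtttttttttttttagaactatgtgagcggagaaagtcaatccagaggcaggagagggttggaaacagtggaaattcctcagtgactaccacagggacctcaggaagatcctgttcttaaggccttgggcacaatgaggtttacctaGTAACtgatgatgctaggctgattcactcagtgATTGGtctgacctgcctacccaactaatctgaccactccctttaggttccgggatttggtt

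Both strands of each window, with 50 bases after the start site, were searched. The pair runs from base -81 to -44 before the start site in H2-Aa, from -91 to -55 in H2-Eb1 and from -94 to -57 in H2-DMb1, with gaps of 28, 27 and 28 bases between the marked letters of the X box and those of the Y box. This pair of letter strings at a gap of 12 to 34 bases was found in 3.69% of 32851 promoter windows of this length, and this loose form was chosen after the sequences had been seen. With the longer X box string GNAACNG and a gap of 12 to 30 bases the pair was found in 0.980% of the windows, H2-Eb1 and H2-DMb1 among them and H2-Aa not. Neither of the 2 windows of H2-DMa held either pair. Their upstream parts end at 34122831 and 34125517, inside the annotated gene (chr17, 34119541 to 34139101, plus strand). Which start its reads came from was not determined, so what these windows hold or lack says nothing of other starts of H2-DMa. The Y box letters alone were found in 37.4% of the windows and this longer X box string alone in 42.3%. TGTGGT, the letters best known as bound by RUNX factors, was found in 16.8% of the windows and, of the 4 members, in those of H2-DMa and H2-DMb1. CCGGAA, an ETS letter string, was found in 14.9% of the windows and in those of the same 2 members. GAAANNGAA, part of an interferon response element, occurred in 8.56% of the windows and in none of these members'.

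Library totals ranged from 32.3 to 64.5 M reads, and 3 reads, the floor under which a level was not told from 0, equalled 0.0465 CPM (read counts scaled to a common library total, as deposited) in the deepest and 0.0928 CPM in the shallowest library. Runx1 lay at 218 to 244 CPM in ETV6-RUNX1 against 110 to 136 CPM in WT fetal liver and at 143 to 194 against 86.7 to 105 CPM in bone marrow, higher in both groups labelled with the fusion. All 12 of the HSC markers examined were detected and tested, with summed levels of 1708 to 2079 CPM in WT fetal liver, 4002 to 4106 in ETV6-RUNX1 fetal liver, 1820 to 2641 in WT bone marrow and 2948 to 3244 CPM in ETV6-RUNX1 bone marrow. Among them Ly6a, which encodes the sorting antigen Sca-1 and is also known as interferon-induced, averaged 19.05 CPM in WT and 880 CPM in ETV6-RUNX1 fetal liver and 90.5 and 504 CPM in bone marrow. Genes whose levels depend on sex differed between groups. Xist lay at 51.7 to 89.3 CPM in the 6 fetal liver libraries and at 0.175 to 1.27 CPM in the 6 of bone marrow. The Y-linked genes Kdm5d, Uty, Eif2s3y and Ddx3y together reached 64.6 to 119 CPM in WT fetal liver and 198 to 220 CPM in ETV6-RUNX1 fetal liver. In bone marrow they reached 229 to 288 CPM in WT and 268 to 389 CPM in ETV6-RUNX1, ranges that overlapped. Fetal liver and bone marrow thus differ in both measures. Between the genotypes of fetal liver the Y-linked sum differed while Xist overlapped, at 54.4 to 89.3 CPM in WT and 51.7 to 70.1 CPM in ETV6-RUNX1, and whether that reflects sex composition was not tested. Counts of calls with one or the other measure in the fit are given beside the comparisons.

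Within each group the 7 genes were expressed at very unequal levels, and the order changed with the genotype. Levels of different genes are compared per kilobase of annotated exon (CPM per kb). In WT cells of both sources H2-DMa led, at 12.8 ± 1.79 (SD, n = 3) CPM per kb in fetal liver and 48.0 ± 9.68 in bone marrow. Cd74 followed at 4.34 ± 1.85 and 25.3 ± 8.27 CPM per kb, with libraries that overlapped those of H2-DMb1, at 3.87 ± 0.387 and 19.5 ± 2.29. In ETV6-RUNX1 cells Cd74 led in both sources, at 184 ± 93.2 CPM per kb in fetal liver and 158 ± 45.4 in bone marrow. No library of H2-DMa, the next gene, with 5.28 ± 0.844 and 50.4 ± 5.64 CPM per kb, reached the level of Cd74 there. Among the classical chains H2-Ab1 stood highest in bone marrow, at 5.60 ± 0.804 CPM per kb in WT and 11.8 ± 2.85 in ETV6-RUNX1, while H2-Eb1 and H2-Aa overlapped each other at 0.907 ± 0.267 and 0.760 ± 0.560 in WT and at 1.89 ± 0.0523 and 1.96 ± 0.399 in ETV6-RUNX1. In WT fetal liver the chains were low, with H2-Eb1 at 0.325 ± 0.0463 and H2-Ab1 at 0.229 ± 0.0703 CPM per kb, which overlapped, and H2-Aa at 0.0440 ± 0.0461, whose libraries overlapped those of Ciita. In ETV6-RUNX1 fetal liver the lowest of the chains had become the highest, with H2-Aa at 2.30 ± 0.433, H2-Eb1 at 0.949 ± 0.529 and H2-Ab1 at 0.239 ± 0.0983 CPM per kb, none overlapping the next. Ciita was last in all groups, at 0.0174 to 0.0894 CPM per kb on average. Because RNA was taken from bulk cultures, fewer cells of a type and less RNA per cell cannot be told apart in any of these levels.

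**Figure D1:**
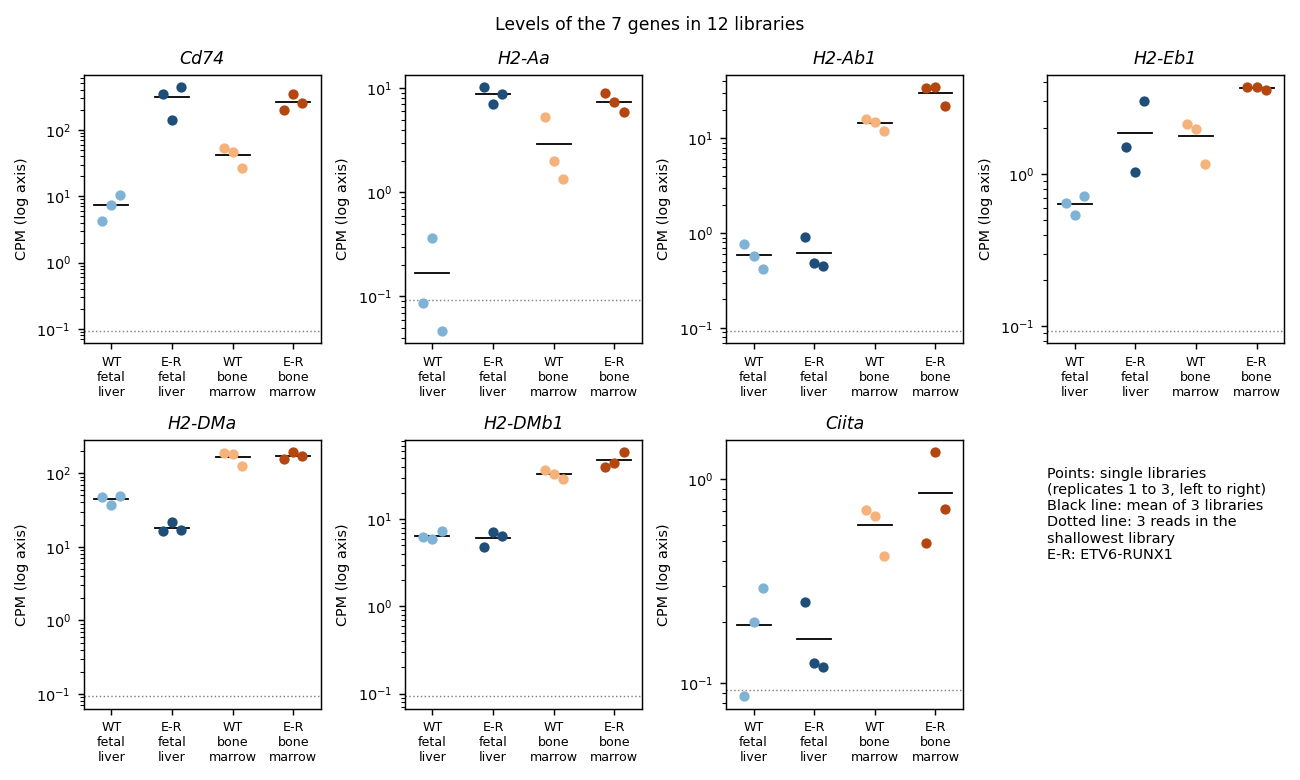
Levels of the 7 genes in the 12 libraries, in CPM on a log axis, by group (E-R, ETV6-RUNX1), with single libraries as points, the mean of 3 as a black line and 3 reads in the shallowest library as a dotted line. Cd74 and H2-Aa rise from WT to ETV6-RUNX1 in both sources. H2-Ab1, H2-DMa, H2-DMb1 and Ciita each separate the sources, and H2-DMa is lowest in ETV6-RUNX1 fetal liver at 16.2 to 21.5 CPM.

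The first comparison asked what ETV6-RUNX1 changes in HSCs of the fetal liver. Cd74, H2-Aa and H2-Eb1 were higher than in WT, H2-DMa was lower, and H2-Ab1 and H2-DMb1 did not pass the test. That made 3 members higher and 1 lower among the 6 that were tested, against 24.8% higher and 18.3% lower (43.1% in all) among the 14271 genes that entered the test, a split that quantile normalization turns, from 57.6% to 42.0% of calls higher. With the Y-linked sum in the fit the genes called numbered 847 in place of 6151, 674 of them higher and 173 lower, and 3 members were called. That sum separates these groups. With it in the fit the standard error (SE) of the log2 change went from 0.22 to 0.45 for H2-Ab1 and from 0.19 to 0.39 for H2-DMb1. A call lost in this way does not tell a smaller effect from a wider error. Ciita was too low to be tested (at least 1 CPM was required in at least 3 of the 12 libraries). A call means an adjusted p under 0.05 in limma, a linear model fitted to log2(CPM + 1) of all genes with Benjamini-Hochberg adjustment over all of them, and fold changes are on that scale, which understates the change of low genes. The same 4 members had groups that did not overlap, as did 55.6% of all genes tested.

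Cd74 (ENSMUSG00000024610, chromosome 18, 60803848 to 60812652, plus strand) stood at 4.17, 7.33 and 10.4 CPM in the 3 WT fetal liver libraries. It reached 344, 138 and 446 CPM in the ETV6-RUNX1 libraries. Even the lowest ETV6-RUNX1 library lay far above the highest WT library. The log2 fold change was 5.14 ± 0.39 (SE, limma adjusted p 2.19e-07), a ratio of mean CPM of 42.4, and the call held in all 26 alternative fits. No exon of another protein-coding gene overlaps it and no stretch of 50 transcript bases is shared with another gene.

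H2-Aa (ENSMUSG00000036594, chr17, 34282744 to 34287823, minus strand) had 4, 22 and 3 reads in WT fetal liver, or 0.0865, 0.368 and 0.0465 CPM, the last of them at the floor. In ETV6-RUNX1 fetal liver it had 493, 394 and 294 reads, or 10.4, 7.07 and 8.82 CPM. The gene was barely detected in WT libraries and clearly present in each ETV6-RUNX1 library. Its log2 fold change was 3.06 ± 0.30 (SE, limma adjusted p 3.25e-06), and this call too held in all alternatives, 25 in number since the gene is left out when a mean of 5 CPM is required.

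The partner chain of H2-Aa did not follow. H2-Ab1 (ENSMUSG00000073421, chr17, 34257689 to 34269419, plus strand) lay at 0.778, 0.569 and 0.419 CPM in WT and at 0.903, 0.485 and 0.450 CPM in ETV6-RUNX1 fetal liver. The groups overlapped, the log2 fold change was 0.02 ± 0.22 (SE, limma adjusted p 0.959), and its 95% interval ran from -0.45 to 0.49 on the log2(CPM + 1) scale, where levels under 1 CPM leave little room for a fall. H2-Eb1 (ENSMUSG00000060586, chr17, 34305867 to 34316674, plus strand) went from 0.649, 0.535 and 0.713 CPM to 1.51, 1.02 and 2.999 CPM, without overlap but with a wide spread among the ETV6-RUNX1 libraries. The log2 difference was 0.74 ± 0.24 (SE, adjusted p in limma 0.0213). The rise of H2-Eb1 was no longer called without WT replicate 2 (adjusted p 0.0661) or without ETV6-RUNX1 replicate 3 (0.098), nor without a minimum level (0.0721), with quantile normalization (0.0513), or with Y-linked expression in the fit (0.433), which kept the calls of Cd74 (0.000506), H2-Aa (0.00186) and H2-DMa (0.0227).

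The H2-DM genes, which act after the invariant chain has been cut, split as well. H2-DMa (ENSMUSG00000037649, chr17, 34119541 to 34139101, plus strand) fell from 46.9, 37.1 and 48.5 CPM in WT to 16.2, 21.5 and 16.9 CPM in ETV6-RUNX1 fetal liver. All ETV6-RUNX1 libraries lay below all WT libraries, and the log2 difference was -1.24 ± 0.18 (SE, limma adjusted p 8.18e-05), a call kept in all 26 alternatives. H2-DMa shares 360 exon bases with Brd2 on the opposite strand, and whether counting used strand is not given in the sources used here. Brd2, a chromatin reader, stood at 104 to 122 CPM in WT and 124 to 143 CPM in ETV6-RUNX1 fetal liver and was not lower there. H2-DMb1 (ENSMUSG00000079547, chr17, 34153072 to 34160230, plus strand) lay at 6.27, 6.01 and 7.24 CPM in WT and 4.81, 7.06 and 6.36 CPM in ETV6-RUNX1. The groups overlapped (a log2 difference of -0.10 ± 0.19 SE with an adjusted p of 0.713 in limma, 95% interval -0.50 to 0.31). Of its 50-base stretches 22.7% are shared with H2-DMb2, so its reads are uncertain to that extent.

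**Figure D2:**
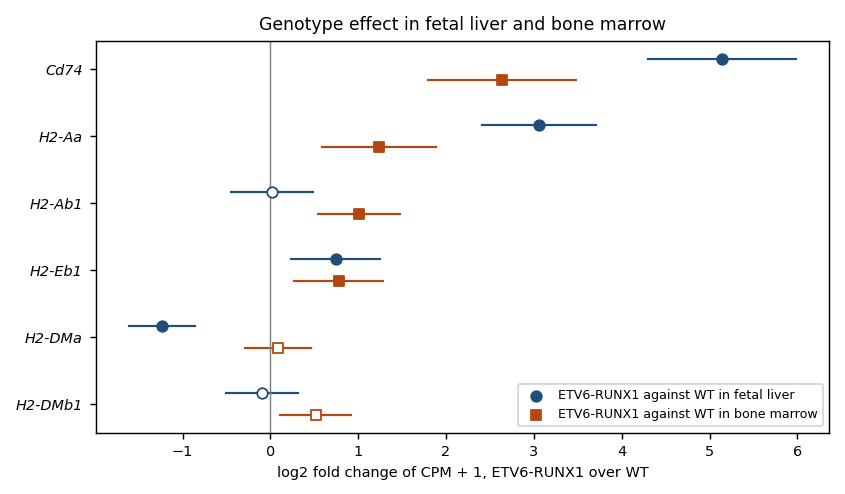
Log2 fold change of CPM + 1 in ETV6-RUNX1 over WT for the 6 tested members, in fetal liver (circles) and bone marrow (squares), with 95% intervals, filled symbols marking an adjusted p under 0.05 in limma. Cd74 stands farthest to the right in both sources (5.14 and 2.64), and H2-DMa lies left of 0 in fetal liver only, at -1.24 against 0.09 in bone marrow.

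The unequal change of partner chains is seen within single libraries. Per kb, the ratio of H2-Aa to H2-Ab1 was 0.0751, 0.438 and 0.0751 in WT fetal liver, 0.224, 0.0901 and 0.0754 in WT bone marrow and 0.179, 0.141 and 0.185 in ETV6-RUNX1 bone marrow, so that the beta chain transcript was in excess in all 9. In ETV6-RUNX1 fetal liver the ratio was 7.75, 9.87 and 13.3, with the alpha chain transcript in excess in each library. As log2 ratios the means were 3.33 ± 0.39 (SD, n = 3) there and -2.89 ± 1.47 in WT fetal liver, which do not overlap (exact permutation p 0.1, two-sided, the smallest that 3 against 3 allows). The WT fetal liver ratios rest on 3 to 22 reads of H2-Aa. Cd74 over H2-Ab1 per kb was 582, 437 and 1515 in ETV6-RUNX1 fetal liver against 8.20, 19.7 and 37.9 in WT, likewise apart (exact p 0.1). Cd74 over H2-Aa was 75.1, 44.3 and 114 against 109, 45.04 and 504, which overlapped (exact p 0.6). Within H2-DM the ratio of H2-DMb1 to H2-DMa was 0.274, 0.332 and 0.306 in WT and 0.611, 0.672 and 0.770 in ETV6-RUNX1 fetal liver, without overlap (exact p 0.1). These belong to 24 tests of 6 quantities, Ciita among them, of which none can reach 0.05 with this number of libraries and none has a p under 0.185 after Benjamini-Hochberg adjustment over the 24.

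**Figure D3:**
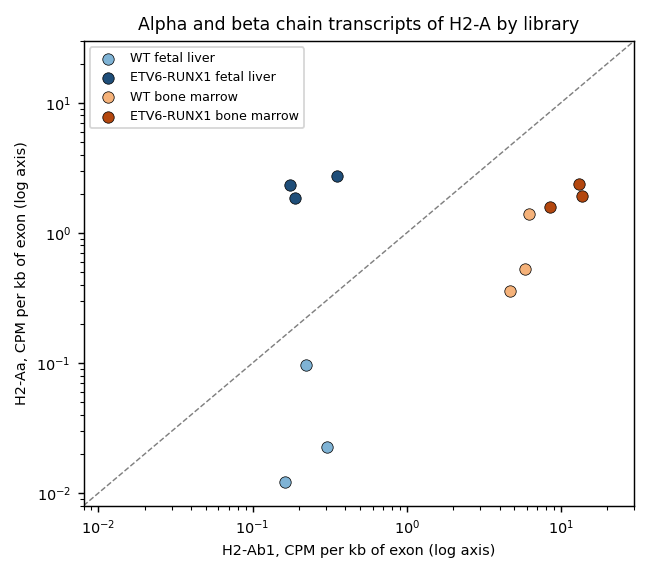
H2-Aa against H2-Ab1 in each of the 12 libraries, in CPM per kb of exon on log axes, with a dashed line of equal levels. The 3 ETV6-RUNX1 fetal liver libraries lie above the line at ratios of 7.75 to 13.3, and the other 9 lie below it.

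Ciita (ENSMUSG00000022504, chr16, 10480059 to 10528418, plus strand) was low throughout. It had 4, 12 and 19 reads in WT fetal liver (0.0865, 0.201 and 0.295 CPM) and 12, 7 and 4 reads in ETV6-RUNX1 fetal liver (0.252, 0.126 and 0.120 CPM). The groups overlapped (exact permutation p 0.7), and a fit of all 29278 genes with reads, which needs no minimum level, gave a log2 fold change of -0.03 ± 0.15 (SE, limma adjusted p 0.974). In bone marrow Ciita stood at 0.705, 0.662 and 0.424 CPM in WT and 0.486, 1.36 and 0.712 CPM in ETV6-RUNX1, again overlapping (exact p 0.4, and 0.19 ± 0.15 with limma adjusted p 0.528 in the fit without a minimum). At 4 to 44 reads a library, a moderate change of the transactivator transcript was not detectable at this depth.

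The genes around class II presentation were read next in the fetal liver comparison, by lists. Of all genes tested there 24.8% were called higher and 18.3% lower. Of the 19 genes on the route from interferon to Ciita 16 were tested, and 13 rose and none fell, with a median log2 fold change of 1.06 where the median of all genes was 0.08. Stat2, a factor that carries the interferon signal, rose most (4.10 ± 0.24 SE, limma adjusted p 2.19e-08), and among the others that rose were Irf1 (2.52 ± 0.21, 6.18e-07), which acts on the Ciita promoter, and Irf9 (2.31 ± 0.17, 1.72e-07). Ifng itself, Irf4 and Pax5 were too low to be tested. The 16 include Prdm1, a repressor of Ciita, and Socs1, an inhibitor of interferon signalling, so not every gene of the list acts toward Ciita. Prdm1 reached 1 CPM only in ETV6-RUNX1 libraries and Socs1 only in ETV6-RUNX1 bone marrow. Both thus entered the test through groups where they are high. Over the alternatives this list gave 5 to 15 rises and no fall, the lowest number with Y-linked expression in the fit.

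A list of 11 promoter factors held Nlrc5 and 10 that act at class II promoters. Of these 10, counted apart after the values were seen, 5 rose and 1 fell (median 0.52). Nlrc5, the counterpart of Ciita that acts on class I promoters, had the greatest rise, from 9.90, 7.95 and 6.45 to 123, 85.9 and 114 CPM (3.58 ± 0.20 SE, limma adjusted p 1.35e-08). Kat2b, an acetyltransferase, rose by 1.199 ± 0.16 (limma adjusted p 4.44e-05), Ep300, another, by 0.86 ± 0.20 (0.00315) and Rfx5, a DNA-binding subunit of RFX, by 0.78 ± 0.24 (0.0162). Nfyb, a subunit of the Y box factor NF-Y, was the gene that fell (-0.49 ± 0.13, limma adjusted p 0.00615). The rise of Rfx5 was no longer called with quantile normalization (adjusted p 0.0513), nor without WT replicate 2 or 3 or ETV6-RUNX1 replicate 3 (0.0579, 0.0586 and 0.0722).

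Among 11 tested genes of peptide supply and class II turnover 6 rose and 1 fell (median 0.44). Ctss, the protease that makes the last cuts in the invariant chain, rose from 0.562, 1.29 and 0.310 CPM to 128, 47.1 and 138 CPM (5.83 ± 0.47 SE, limma adjusted p 3.69e-07). Its ETV6-RUNX1 libraries kept the order of Cd74, with replicate 2 lowest and replicate 3 highest. H2-Eb1 had this order too and H2-Aa did not, and a link between these orders was not tested. Sppl2a, which clears the remaining membrane stub of the invariant chain, rose by 1.00 ± 0.13 (limma adjusted p 2.95e-05) and the asparagine endopeptidase Lgmn by 0.85 ± 0.22 (0.00608). Ifi30, a thiol reductase that opens disulfide bonds of antigens, fell (-1.28 ± 0.24, limma adjusted p 0.000698). Of 5 ligands and partners of surface CD74, 2 rose and 1 fell (median 0.65). Cd44, its signalling partner, rose by 1.04 ± 0.18 (limma adjusted p 0.000384) and Cxcr4 by 0.65 ± 0.24 (0.043, but 0.0533 with TMM scaling), while Mif, the ligand, fell from a mean of 577 to 190 CPM (-1.60 ± 0.18, 1.23e-05). Over all alternatives, calls of a rise ranged from 2 to 7 for the promoter factors with Nlrc5, 1 to 7 for peptide supply and 0 to 3 for the partners of CD74, and the fewest came with Y-linked expression in the fit.

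Ligands that T cells read beside class II also differed. Of 7 co-stimulatory and co-inhibitory ligands tested 5 rose and none fell (median 1.75), with Cd86 at 1.69, 1.02 and 1.21 CPM in WT and 73.8, 25.7 and 56.8 CPM in ETV6-RUNX1 fetal liver (4.41 ± 0.32 SE, limma adjusted p 1.26e-07). Cd274, which encodes PD-L1, rose by 3.35 ± 0.24 (limma adjusted p 9.73e-08), Icosl by 2.07 ± 0.29 (6.78e-05) and Cd40 by 1.75 ± 0.49 (0.0101). Cd40 stood at 0 CPM in all WT fetal liver libraries and at most 0.234 CPM in WT bone marrow. It passed the minimum level only through ETV6-RUNX1 libraries, where it is high, so its rise is in part fixed by the filter. Of 15 class I presentation genes 13 rose and none fell (median 1.73), led by Tap1 (2.97 ± 0.16 SE, limma adjusted p 8.37e-09), H2-K1 (2.42 ± 0.16, 6.60e-08), Tapbp (2.23 ± 0.18, 3.88e-07) and H2-D1 (2.19 ± 0.22, 3.25e-06). Of the other structural class II genes H2-Oa, a subunit of the H2-DM inhibitor H2-O, fell (-1.18 ± 0.22, limma adjusted p 0.000696), and its partner H2-Ob (-0.21 ± 0.28, 0.572) and H2-DMb2 (0.06 ± 0.20, 0.817) did not pass the test.

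With Y-linked expression in the fit 3 of the co-stimulatory and co-inhibitory ligands and 10 of the class I genes were called higher in fetal liver, and none lower.

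**Figure D4:**
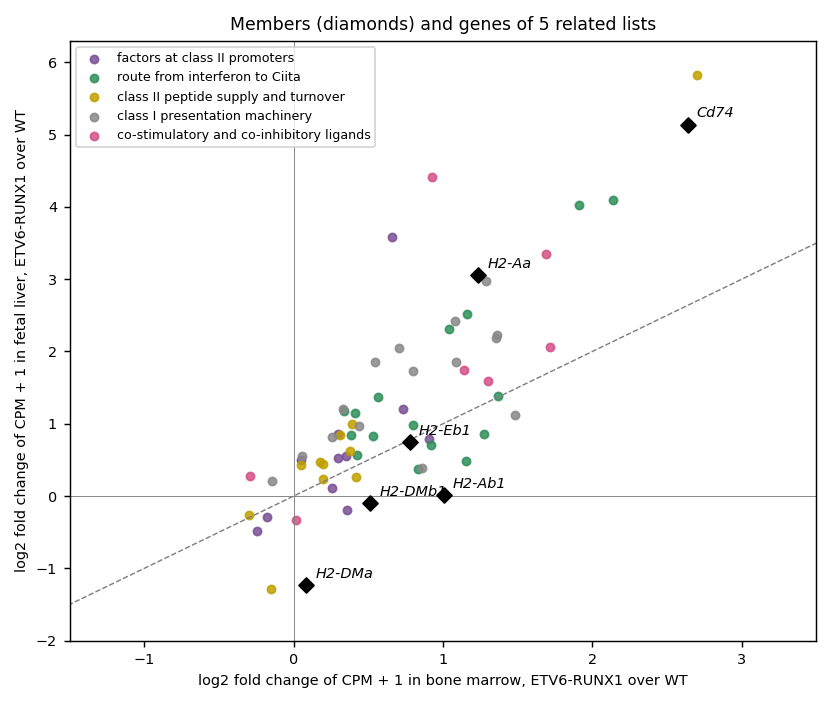
Log2 fold change of CPM + 1 in ETV6-RUNX1 over WT in bone marrow (x axis) and fetal liver (y axis) for the 6 tested members (diamonds) and the tested genes of 5 related lists (points), with a dashed line of equal change. Cd74 and H2-Aa lie above the line and H2-DMa and H2-Ab1 below it.

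Markers of cell types that carry class II molecules were examined beside these results, where 24.8% of all genes tested in fetal liver were called higher and 18.3% lower. Of 13 monocyte and macrophage markers 5 were tested and all 5 rose in fetal liver, among them Csf1r, the receptor for macrophage colony-stimulating factor (2.59 ± 0.27 SE, limma adjusted p 4.42e-06), and Fcgr1 (2.56 ± 0.32, 2.29e-05). Their summed level was 43.0, 50.9 and 48.6 CPM in WT and 145, 129 and 159 CPM in ETV6-RUNX1 fetal liver, most of it Cd68. Without Cd68, a count made after the values were seen, the other 12 markers summed to 4.28, 3.86 and 3.83 CPM in WT and 45.6, 23.1 and 49.9 CPM in ETV6-RUNX1. Adgre1, C1qa, C1qb, Ly6c2, Marco and Mertk were at or under the floor in all WT libraries of fetal liver, and C1qa and C1qc in all of ETV6-RUNX1. Of 15 dendritic cell markers 6 were tested, of which 4 rose (Clec9a, Zbtb46, Xcr1 and Tcf4) and 2 fell (Flt3 and Clec10a), with sums of 145 to 169 against 221 to 240 CPM, most of it Tcf4. Siglech, Ly6d and Klk1 were at or under the floor in both groups, Itgax was at 0.0764 and 1.01 CPM on average, and Clec9a, a marker of the dendritic cells that cross-present, was at 1.30 and 8.15 CPM. Of 12 B cell markers 3 were tested and 1 rose (Fcrla, 1.42 ± 0.18, limma adjusted p 2.38e-05), with sums of 52.7 to 54.6 against 59.9 to 86.1 CPM that were mostly Cd79b. Fcrla averaged 0.117 CPM in WT and 1.99 CPM in ETV6-RUNX1 fetal liver, and Xcr1 averaged 0.199 and 1.13 CPM. Both reached the minimum level for testing only through ETV6-RUNX1 fetal liver, and Adgre1 only through ETV6-RUNX1 libraries. Such genes entered the test through groups where they are high, so these counts of rises are in part fixed by the filter. Of 12 HSC markers 9 rose and none fell, Ly6a (5.44 ± 0.44, limma adjusted p 4.13e-07) and Mecom (2.12 ± 0.21, 2.63e-06) most. The endothelial and stromal markers summed to 71.4 to 96.7 against 164 to 188 CPM, and 3 of 4 tested rose. Most of these sums was Pecam1, at 69.7 CPM in WT and 141 CPM in ETV6-RUNX1 fetal liver on average. Lyve1, another of the 4, averaged 0.515 CPM in WT and 12.4 CPM in ETV6-RUNX1 fetal liver, and 0.160 and 0.0206 CPM in WT and ETV6-RUNX1 bone marrow. It too reached the minimum level for testing only through ETV6-RUNX1 fetal liver, so the endothelial count is in part fixed by the filter. Over all alternatives 2 to 6 monocyte markers and 0 to 5 dendritic cell markers were called higher. The part of these cell types in the changes of Cd74, H2-Aa and H2-Eb1 was not tested.

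The second comparison asked the same of adult bone marrow. There ETV6-RUNX1 went with higher levels of all 3 classical chains and of Cd74, and neither H2-DM gene passed the test. That made 4 of the 6 tested members higher and none lower, where 14.4% of genes were called higher and 4.93% lower (19.4% in all), a split of 74.5% higher that became 53.0% with median-of-ratios scaling. With the Y-linked sum in the fit 1445 genes were called in place of 2763. Groups did not overlap for these 4 and for H2-DMb1, 5 members in all, as for 34.5% of genes.

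Cd74 stood at 53.4, 47.0 and 26.8 CPM in WT and 198, 348 and 251 CPM in ETV6-RUNX1 bone marrow. The groups were far apart, with a log2 fold change of 2.64 ± 0.39 (SE, limma adjusted p 0.000783), called in all 26 alternatives. H2-Ab1 rose from 16.02, 15.1 and 12.1 CPM to 33.9, 35.1 and 21.9 CPM (1.00 ± 0.22, limma adjusted p 0.00691, called in all 26 alternatives), without overlap. H2-Aa lay at 5.31, 2.01 and 1.35 CPM in WT and 8.997, 7.33 and 5.97 CPM in ETV6-RUNX1, close to overlapping because of WT replicate 1 (1.23 ± 0.30, limma adjusted p 0.0131). H2-Eb1 went from 2.13, 1.99 and 1.17 CPM to 3.73, 3.74 and 3.56 CPM (0.78 ± 0.24, limma adjusted p 0.0345). The last 2 calls were less stable. That of H2-Aa was lost with edgeR on the recovered reads (adjusted p 0.130) and without WT replicate 3 (0.0547) and kept in 19 of 25 alternatives, and that of H2-Eb1 was kept in 9 of 25 alternatives and lost with edgeR (0.138), DESeq2 (0.113) and without any 1 of 5 of the 6 bone marrow libraries.

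H2-DMa lay at 187, 182 and 127 CPM in WT and 155, 194 and 173 CPM in ETV6-RUNX1 bone marrow, which overlapped (a log2 difference of 0.09 ± 0.18 SE with an adjusted p of 0.766 in limma, 95% interval -0.29 to 0.46). H2-DMb1 was at 36.7, 32.6 and 29.0 CPM in WT and 40.1, 43.8 and 59.0 CPM in ETV6-RUNX1, which do not overlap but did not pass the test (0.51 ± 0.19, limma adjusted p 0.0714).

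The surrounding lists were read in the same way, where 14.4% of all genes tested were called higher and 4.93% lower. The counts below for class II promoter factors and peptide supply lie near that share. On the route from interferon to Ciita 11 of 16 genes rose and none fell (median 0.88 against 0.13 for all genes), with Stat2 at 2.14 ± 0.24 (SE, limma adjusted p 0.00015), Spi1, a myeloid factor, at 1.37 ± 0.27 (0.00386) and Ifngr2, a receptor chain for interferon gamma, at 1.27 ± 0.35 (0.0207). The 11 include the inhibitor Socs1 (0.84 ± 0.19, limma adjusted p 0.0088) and the Ciita repressor Prdm1 (0.92 ± 0.23, 0.0151). Socs1 reached 1 CPM only in ETV6-RUNX1 bone marrow (1.14 to 1.64 CPM) and Prdm1 only in ETV6-RUNX1 libraries. Both thus entered the test through groups where they are high. Of 10 factors of class II promoters 2 rose and none fell (median 0.30), and Nlrc5 rose as well: Rfx5 (0.91 ± 0.24, limma adjusted p 0.0174), Kat2b (0.73 ± 0.16, 0.00666) and Nlrc5 (0.66 ± 0.20, 0.0361), the last not called with median-of-ratios scaling (0.0679). Of 11 genes of peptide supply 2 rose and none fell (median 0.20), namely Ctss, from 4.82, 2.75 and 1.54 to 11.6, 45.3 and 25.1 CPM (2.70 ± 0.47, limma adjusted p 0.00202), and Sppl2a (0.39 ± 0.13, 0.0439), which was not called with median-of-ratios or TMM scaling (0.16 and 0.176). Mif was the 1 of 5 CD74 ligands and partners called, and it fell (-0.76 ± 0.18, limma adjusted p 0.0116). Of 7 co-stimulatory and co-inhibitory ligands 3 rose and none fell (median 1.14), Icosl (1.72 ± 0.29, limma adjusted p 0.00156), Cd274 (1.69 ± 0.24, 0.0005) and Pdcd1lg2 (1.30 ± 0.26, 0.0044). Of 15 class I presentation genes 9 rose and none fell (median 0.80), led by Tap2 (1.48 ± 0.24, limma adjusted p 0.00134), Tapbp (1.36 ± 0.18, 0.000355) and H2-D1 (1.36 ± 0.22, 0.00123). None of the 3 other structural class II genes was called. Over all alternatives, Y-linked expression in the fit included, calls of a rise ranged from 6 to 15 for the interferon route, 1 to 5 for the promoter factors with Nlrc5, 1 to 3 for peptide supply and 6 to 10 for class I.

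Cell type markers were examined there too, where 14.4% of all genes tested were called higher and 4.93% lower. Of 5 monocyte and macrophage markers tested 1 rose (Cd68, 1.10 ± 0.17 SE, limma adjusted p 0.000972), with summed levels of 37.3 to 64.7 CPM in WT and 91.2 to 113 CPM in ETV6-RUNX1, and with C1qa, C1qb and Marco at or under the floor in both. Of 6 dendritic cell markers 1 rose (Zbtb46, 0.70 ± 0.23, limma adjusted p 0.0467, but 0.0731 with median-of-ratios scaling), with sums of 187 to 224 against 226 to 264 CPM, and Cd8a, Cd209a, Klk1 and Ly6d were at or under the floor in both. None of 3 B cell markers was called. Csf1r (0.33 ± 0.27, limma adjusted p 0.40) and Clec9a (0.02 ± 0.38, 0.97) did not pass the test. As in fetal liver, the part of these cells in the members' changes was not tested.

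The difference between the genotype effects, that in fetal liver minus that in bone marrow, was tested in the same fit. Cd74 and H2-Aa had larger effects in fetal liver and H2-DMa a more negative one, which made 2 members higher and 1 lower of 6, where 5.56% of genes were called higher and 3.62% lower (9.19% in all, with 60.6% of calls higher and 73.8% with median-of-ratios scaling). The genes called numbered 1311, and 355 with the Y-linked sum and 669 with Xist in the fit. The difference was 2.503 ± 0.56 (SE, limma adjusted p 0.0132) for Cd74, 1.82 ± 0.43 (0.0181) for H2-Aa and -1.32 ± 0.25 (0.00475) for H2-DMa. For Cd74 the WT means were 7.29 CPM in fetal liver and 42.4 CPM in bone marrow, and those of ETV6-RUNX1 309 and 266 CPM. H2-Ab1 had a difference of -0.99 ± 0.31 that did not pass the test (limma adjusted p 0.060) and was called in 4 of 25 alternatives, with adjusted p from 0.0214 to 0.197. Values for H2-DMb1 (-0.61 ± 0.27, limma adjusted p 0.164) and H2-Eb1 (-0.03 ± 0.34, 0.965) did not pass either. The calls of Cd74 and H2-Aa were lost when all genes with reads were tested (adjusted p 0.0743 and 0.0851) and with Y-linked expression in the fit (0.0514 and 0.0508), and that of Cd74 also with Xist in the fit (0.0585), while H2-DMa kept its call in all 25 alternatives.

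The same test was read on the surrounding lists, where 5.56% of all genes tested were called higher and 3.62% lower. It gave larger effects in fetal liver for 5 of 16 genes of the interferon route and smaller ones for none, with Stat2 at 1.96 ± 0.35 (SE, adjusted p in limma 0.00315), Irf1 at 1.36 ± 0.30 (0.0129) and Irf9 at 1.27 ± 0.25 (0.00551). Nlrc5, at 2.92 ± 0.29 (adjusted p 4.20e-05), was called, and none of the 10 factors of class II promoters was. Of the peptide supply genes 2 of 11 were called, Ctss (3.13 ± 0.67, adjusted p 0.0102) and Sppl2a (0.61 ± 0.18, 0.0475), the latter in a minority of alternatives. Of 7 co-stimulatory and co-inhibitory ligands 2 were called, Cd86 (3.49 ± 0.45, adjusted p 0.000361) and Cd274 (1.66 ± 0.33, 0.00746), of 15 class I genes 7, led by Tap1 (1.69 ± 0.22, 0.000362), and of 5 partners of CD74 only Cd44 (0.97 ± 0.25, 0.0287). None of these lists held a called gene with a smaller effect in fetal liver in this fit. With Y-linked expression in the fit the calls numbered 2 on the interferon route, 1 each for the 11 promoter factors, peptide supply and the co-stimulatory and co-inhibitory ligands, 5 for class I and 0 for the partners of CD74. With Xist they numbered 3 on the interferon route, 4 for class I, 2 for the co-stimulatory and co-inhibitory ligands and 0 for the partners of CD74, and peptide supply held 1 higher and 1 lower.

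Fetal and adult cells were then compared within each genotype. In WT all 6 tested members were lower in each fetal liver library than in any of bone marrow, where 29.5% of genes did not overlap in one direction or the other. The test called 5 of them, where 7.77% of genes were called lower and 3.38% higher (11.1% in all, with 30.3% of calls higher and 40.7% with median-of-ratios scaling). H2-Ab1 differed most on the log2(CPM + 1) scale, by -3.27 ± 0.22 (SE, limma adjusted p 3.45e-07), a ratio of mean CPM of 24.4. The others called were Cd74 (-2.40 ± 0.39, limma adjusted p 0.00108), H2-DMb1 (-2.17 ± 0.19, 5.29e-06), H2-DMa (-1.87 ± 0.18, 9.70e-06) and H2-Aa (-1.61 ± 0.30, 0.00302). By the ratio of mean CPM H2-Aa, at 17.3, came after H2-Ab1, with Cd74 at 5.81, H2-DMb1 at 5.04 and H2-DMa at 3.75, since the log2(CPM + 1) scale understates the change of low genes. H2-Eb1 did not pass the test (-0.74 ± 0.24, limma adjusted p 0.0604). Ciita was lower in each fetal liver library than in any of bone marrow in both genotypes (exact permutation p 0.1 each, the smallest possible), and without a minimum level it was called in ETV6-RUNX1 (-0.64 ± 0.15, limma adjusted p 0.0209) and not in WT (-0.42 ± 0.15, 0.212).

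In ETV6-RUNX1 cells the difference between sources remained for some members and was not seen for others. H2-Ab1 (-4.26 ± 0.22 SE, limma adjusted p 1.15e-08), H2-DMa (-3.19 ± 0.18, 2.43e-08), H2-DMb1 (-2.78 ± 0.19, 1.53e-07) and H2-Eb1 (-0.78 ± 0.24, 0.0249) were lower in fetal liver, 4 of 6, where 18.2% of genes were called lower and 10.4% higher (28.6% in all, with 36.3% of calls higher and 57.7% with median-of-ratios scaling). Their groups did not overlap, as for 42.2% of genes. Cd74 (0.10 ± 0.39, limma adjusted p 0.878, 95% interval -0.75 to 0.94) and H2-Aa (0.21 ± 0.30, 0.642, interval -0.44 to 0.86) overlapped between the sources. With Xist in the fit no member was called in either genotype (limma adjusted p of at least 0.696 in WT and 0.347 in ETV6-RUNX1), so source and sex composition cannot be told apart here. Xist and the Y-linked sum both separate the sources. With Xist in the fit the SE of Cd74 in WT went from 0.39 to 3.095, so a lost call does not show a smaller difference. With Y-linked expression in the fit the WT calls of Cd74 (adjusted p 0.158), H2-Aa (0.170) and H2-DMa (0.13) were lost. The call of H2-Eb1 in ETV6-RUNX1 was kept in 11 of 25 alternatives.

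The genes around the members were read beside the shares of all genes tested that were called lower and higher in fetal liver. These were 7.77% and 3.38% in WT and 18.2% and 10.4% in ETV6-RUNX1. In WT, 10 of 15 class I genes were lower in fetal liver than in bone marrow and none higher, with H2-K1 at -1.76 ± 0.16 (SE, adjusted p in limma 9.01e-06) and B2m, the light chain of class I, at -1.54 ± 0.19 (0.000117). Of 16 genes of the interferon route 4 were lower, Irf1 (-0.79 ± 0.21, adjusted p 0.0276) and Irf9 (-0.67 ± 0.17, 0.0211) among them, and Irf8, a factor of dendritic cells and B cells, was higher (1.41 ± 0.29, 0.00528). Nlrc5 was lower (-2.31 ± 0.20, adjusted p 5.29e-06), and none of the 10 factors of class II promoters was called. With Xist in the fit none of these genes was called in WT, where 2 genes in all were, both higher. Since Xist separates the sources, this loss of calls does not show that the differences are smaller. With Y-linked expression in the fit 4 class I genes were called lower, and no gene of the interferon route or of the promoter factors was called. In ETV6-RUNX1 cells the class I list held 1 lower gene, Tap2 (-1.55 ± 0.24, adjusted p 0.000296), and none higher. There 5 genes of the interferon route were higher in fetal liver, with Irf8 at 2.20 ± 0.29 (adjusted p 6.59e-05) and Stat2 at 1.23 ± 0.24 (0.00196), and Prdm1, a repressor of Ciita, was lower (-0.66 ± 0.23, 0.0464). Both H2-O genes were lower in fetal liver of ETV6-RUNX1 mice, H2-Ob at -1.46 ± 0.28 (adjusted p 0.00142) and H2-Oa at -1.32 ± 0.22 (0.000491), and in WT H2-Ob alone was called (-1.27 ± 0.28, 0.00804). With Xist in the fit 40 genes in all were called in ETV6-RUNX1, none of them in these lists, and with Y-linked expression the calls numbered 2 lower class I genes, 2 higher genes of the interferon route and 1 lower gene of H2-O and H2-DMb2. Comparisons between genotypes and between sources share libraries and are not independent of each other.

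The 5 H2 members tested lie in the class II region of chromosome 17 (H2-Oa to H2-Eb2, 34092340 to 34341412), where 13 of 22 annotated genes were tested. Of all genes tested 24.8% were called higher in fetal liver and 14.4% in bone marrow. Outside the members, 4 of 8 tested genes of the region rose in fetal liver and again in bone marrow. They are the peptide transporter genes Tap1 and Tap2 and the immunoproteasome genes Psmb8 and Psmb9, which lie between H2-DMb1 and H2-Ob and serve class I presentation. All 4 are also in the class I list above, so this count is not independent of that one. Tap1 rose by 2.97 ± 0.16 (SE, limma adjusted p 8.37e-09) in fetal liver but by 1.28 ± 0.16 (0.000234) in adult cells. In bone marrow the call of Psmb9 was lost with median-of-ratios scaling (adjusted p 0.157) and that of Psmb8 with edgeR (0.0656). In fetal liver the genes that rose and those that did not were interleaved along the map, with H2-Oa and H2-DMa lower and Brd2 between them not called, H2-DMb2 and H2-DMb1 not called, 4 genes higher, H2-Ob and H2-Ab1 not called, and H2-Aa and H2-Eb1 higher. H2-Ab1 and H2-Aa are next to each other, and the antisense transcript Gm20513 within H2-Eb1 had at most 0.0718 CPM.

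**Figure D5:**
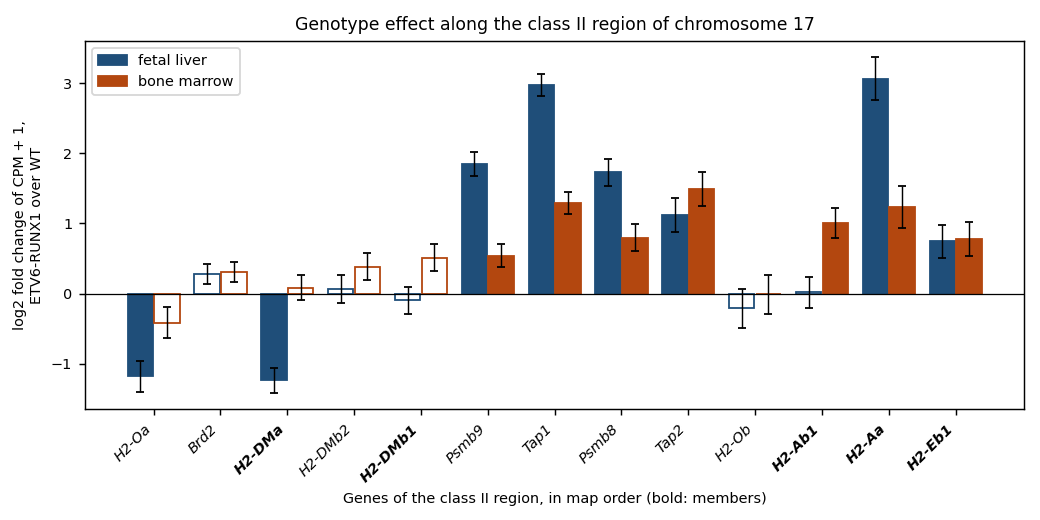
Log2 fold change of CPM + 1 (bars, with SE) in ETV6-RUNX1 over WT for the 13 tested genes of the class II region in map order, in fetal liver (blue) and bone marrow (orange), filled where the adjusted p in limma was under 0.05. H2-Aa (3.06) and its neighbour H2-Ab1 (0.02) differ in fetal liver, and the bars of Psmb9, Tap1, Psmb8 and Tap2 are positive in both sources.

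The pattern over the 12 libraries was compared between genes as the root-mean-square difference of log2(CPM + 1) after centring each gene. Among the 6 tested members the pair most alike was H2-DMa and H2-DMb1, at a difference of 0.46. Nearest to the mean pattern of the 6 were Rab20 (0.29), Npr2 (0.29), Alcam (0.30), Gatm (0.32) and Plscr4 (0.33), all lowest in WT fetal liver and highest in ETV6-RUNX1 bone marrow on average. Nearest to Ciita were Ormdl3 (0.14), Gstm4 (0.16), Nrg4 (0.16), Tpgs2 (0.16) and Tgif1 (0.16), all genes of little change over the libraries, as Ciita is on this scale. Chosen after their values were seen, the genes nearest to Cd74 were Tgtp1 (0.41), Gm12250 (0.47), Gbp8 (0.48), Il18bp (0.52) and Ly6a (0.55), most of them known as interferon-induced. Nearest to H2-Aa was H2-T22 (0.39), a class I-like gene, and nearest to H2-Ab1 was Bgn (0.27), an extracellular proteoglycan gene, at means of 0.151 CPM in WT and 0.139 CPM in ETV6-RUNX1 fetal liver and 17.5 CPM in ETV6-RUNX1 bone marrow. All these patterns rest on the same 12 libraries and are given with no test.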

How the data were processed

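Per the labels' protocols, RNA of the cultured HSCs was extracted with a Norgen kit for single cells, and SMARTer stranded total RNA libraries of small input were sequenced on an Illumina NovaSeq. The submitters' processing notes name GRCm38, STAR 2.5.1a, featureCounts 1.4.6-p5, Salmon 0.8.2, edgeR and limma; their roles, the annotation and the use of strand are not given in the sources used here. The authors deposited 1 table of CPM per gene. After removal of 276 entries that repeat an identifier it held 40481 genes, 11203 of them without reads. All values (100%) were whole multiples of 1 read per library, within 0.001 read, so depth and reads could be recovered; floors cover counting error only. No replicate pair was near identical.

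Tests covered the 14271 genes that reached 1 CPM in 3 or more of the 12 libraries, with limma 3.58.1 (R 4.3.3, mean-variance trend) on log2(CPM + 1), with a coefficient for each group, shared spread (8 residual degrees of freedom), two-sided, Benjamini-Hochberg adjustment over all genes and a threshold of 0.05. edgeR 4.0.16 on the recovered reads called 6178 genes in fetal liver and 2739 in bone marrow, where limma called 6151 and 2763. Fits were tested on simulated data. Single quantities were compared by exact two-sided permutation tests. Exon lengths and positions come from GENCODE M21 (GRCm38), in which 99.4% of identifiers were found, and promoters from RefSeq (GRCm38.p6).

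The members and all 14 gene lists were chosen with earlier results of these data known. Named were all members, up to 4 called genes per list by size of change, the called genes of the class II region, and the 5 genes nearest in pattern to the members' mean and to Ciita; marker genes and other names were chosen after their values were seen. Some genes that this rule names are not reported here. Alternatives were a pseudocount of 0.1, no filter, a mean of at least 5 CPM, median-of-ratios, TMM and quantile scaling, edgeR, DESeq2 1.42.0, the replicate block, array weights, Xist, the processed pseudogene share or, added after seeing the data, the Y-linked sum as a covariate, only the 6 libraries compared, and leaving out each library.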

Additional observations from a re-analysis of the deposited data

Results flagged for a closer look

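The effect of ETV6-RUNX1 differed between fetal liver and bone marrow for 3 members by the test of the difference itself (limma). The effect on Cd74 was larger in fetal liver by 2.503 on the log2 scale (adjusted p 0.0132), that on H2-Aa by 1.82 (adjusted p 0.0181), and that on H2-DMa was more negative there, with a difference of -1.32 (adjusted p 0.00475). In all 3 cases every ETV6-RUNX1 library of fetal liver lay outside the range of WT, and 55.6% of all genes tested had fetal liver groups that did not overlap. The calls of Cd74 and H2-Aa were lost when all genes with reads were tested (limma adjusted p 0.0743 and 0.0851) and with Y-linked expression in the fit. That of H2-DMa was kept in all 25 alternatives. With groups of 3, single libraries were not tested as outliers.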

How the results depend on the processing

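Of 763 values of members under alternative settings 658 kept their direction and side of the threshold, 56 lost a call, 13 gained one and 36 changed sign; no called member changed sign except Cd74 between sources in WT with Xist in the fit (0.24). The cause of these changes was not tested. Scaling moved the median of all genes in bone marrow from 0.13 to 0.01 (median-of-ratios) and -0.04 (quantile), and in fetal liver from 0.08 to -0.10 (quantile); the share of calls that were higher went from 57.6% to 42.0% in fetal liver with quantile normalization and from 74.5% to 53.0% in bone marrow with median-of-ratios scaling.

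Members called in fetal liver numbered 2 with a mean of at least 5 CPM, and in bone marrow 2 without a filter, with a mean of at least 5 CPM, with quantile normalization, edgeR, DESeq2 and the processed pseudogene share. For the interaction they numbered 1 without a filter and with the Y-linked sum and 5 with array weights, and between sources 0 with Xist in both genotypes and 2 in WT with the Y-linked sum. Genes called numbered 847 in fetal liver, 1445 in bone marrow, 355 for the interaction, and 179 (WT) and 2464 (ETV6-RUNX1) between sources with the Y-linked sum; 1678 in bone marrow with only the 6 libraries; for the interaction 767 without a filter, 669 with Xist, 543 with the pseudogene share and 3637 with array weights; between sources 2 (WT) and 40 (ETV6-RUNX1) with Xist and 4401 (WT) with array weights.

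Leaving out each library gave 1520 to 2924 genes in bone marrow, 731 to 2332 for the interaction and 868 to 2781 between sources in WT, the highest of the last 2 without WT bone marrow replicate 1 and the lowest without replicate 2. Members called in bone marrow ranged from 2 (without WT replicate 3) to 4. Values that changed sign when a library was left out ranged from -0.11 to 0.10 for H2-Ab1 and -0.20 to 0.040 for H2-DMb1 in fetal liver, -0.094 to 0.18 for H2-DMa in bone marrow, -0.31 to 0.18 for the interaction of H2-Eb1 and -0.24 to 0.60 for Cd74 between sources in ETV6-RUNX1.

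Other sign changes were all of values that were not called. H2-Ab1 in fetal liver was -0.0082 (median-of-ratios), -0.017 (TMM), -0.16 (quantile), -0.0023 (edgeR), -0.0087 (Xist), -0.28 (Y-linked sum) and -0.13 (pseudogene share). H2-DMb1 in fetal liver was 0.10 (Y-linked sum) and 0.055 (pseudogene share). H2-DMa in bone marrow was -0.057 (median-of-ratios), -0.067 (TMM), -0.086 (edgeR) and -0.078 (DESeq2). The interaction of H2-Eb1 was 0.23 (pseudocount 0.1), 0.054 (median-of-ratios), 0.050 (TMM), 0.076 (quantile), 0.53 (edgeR), 0.54 (DESeq2), 0.013 (Y-linked sum) and 0.52 (pseudogene share). Between sources in ETV6-RUNX1, Cd74 was -0.29 (Y-linked sum) and H2-Aa -0.17 (Xist and Y-linked sum).

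Libraries of equal replicate number did not pair: their deviations correlated at -0.44 to 0.22. With the replicate number as a block 5838 genes were called in fetal liver and 2334 in bone marrow, with 4 and 3 members, and of the members' calls the block ended that of H2-Eb1 in bone marrow (adjusted p 0.0541) and added the interaction of H2-Ab1 (0.0454).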
